A study of Homo sapiens with 12 samples.

Results

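The genes described here encode the human machinery that detects double-stranded RNA and passes the signal on. They are 9 in number, of 26464 gene symbols kept from the tables: DDX58, IFIH1, DHX58, TLR3, MAVS, TBK1, IRF3, EIF2AK2 and ADAR. They were chosen by name, with earlier results of these data known. Each is represented by the transcript model with the most fragments summed over the 12 libraries, which need not be the model with the highest FPKM. PC3, a human prostate carcinoma line, and MG63, a human osteosarcoma line, were both labelled wild type. Each received 10 nM siRNA with Lipofectamine RNAiMAX for 72 h, either a non-targeting sequence (siControl), siLARP4A or siLARP4B. Poly(A) RNA of 2 libraries for each of the 6 combinations of line and siRNA was sequenced. The targets are a related pair of RNA-binding proteins, and the tables list LARP4A as LARP4. All 6 groups, controls included, therefore carried a transfected siRNA duplex and lipid. The siRNAs differ in sequence, so a response to the duplex itself and loss of its target cannot be told apart. The study asks about these proteins in prostate and bone tumour cells. Each line is 1 culture-adapted tumour line, and the labels do not say whether the libraries of a group came from separate cultures, so p-values measure the spread between these libraries, which may be technical.

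Long double-stranded RNA is rare in healthy cytoplasm and is read by animal cells as a sign of viral replication or of misplaced cellular RNA. RIG-I (DDX58) and MDA5 (IFIH1) are helicases that bind double-stranded RNA in the cytosol and engage MAVS on mitochondria, while TLR3 signals from endosomes through TICAM1. Both routes activate the kinase TBK1, which phosphorylates the transcription factor IRF3 and so turns on interferon genes. PKR (EIF2AK2) instead phosphorylates the translation factor eIF2α, and ADAR edits adenosines in double-stranded RNA to inosine, which weakens its recognition. DDX58, IFIH1, DHX58, TLR3, EIF2AK2 and ADAR are themselves textbook interferon-stimulated genes.

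Promoter stretches of 4 members are shown first because these genes changed after at least 1 siRNA and hold a match to the core of an interferon-stimulated response element or, in DDX58, to a shorter form of it. RefSeq (GRCh38.p14) promoters, 250 bases before to 50 after each start site, were matched for 7 of 9 members, DHX58 and IRF3 not among them. The core searched on both strands was a pair of GAAA repeats with any 2 bases between them, which 3.57% of 35116 promoters hold. IFIH1, TLR3 and EIF2AK2 each held at least 1 match. DDX58, which RefSeq lists as RIGI, held none, but held the same repeats with 1 base between them. That form was searched only after the sequence had been seen, and 3.12% of promoters hold it. Either form occurred in 6.4%. The letters of these motifs were not found in the windows of MAVS, TBK1 or ADAR. All sequences run 5′ to 3′ on the gene's own strand, and capitals mark the match.
DDX58, chr9:32526331-32526446, minus strand, bases -250 to -135 from the start site: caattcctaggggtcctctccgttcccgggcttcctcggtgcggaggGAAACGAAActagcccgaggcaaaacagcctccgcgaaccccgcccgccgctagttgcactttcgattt
IFIH1, chr2:162318685-162318903, minus strand, bases -219 to -1: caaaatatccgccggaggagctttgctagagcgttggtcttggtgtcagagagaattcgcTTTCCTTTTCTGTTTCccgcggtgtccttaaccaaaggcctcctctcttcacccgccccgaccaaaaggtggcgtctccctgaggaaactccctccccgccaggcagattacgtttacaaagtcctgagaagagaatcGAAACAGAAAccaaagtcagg
TLR3, chr4:186069092-186069161, plus strand, bases -64 to 6: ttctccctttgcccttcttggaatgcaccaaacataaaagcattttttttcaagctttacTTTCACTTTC
EIF2AK2, chr2:37156977-37157046, minus strand, bases -66 to 4: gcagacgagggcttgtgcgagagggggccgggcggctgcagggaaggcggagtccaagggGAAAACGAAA
IFIH1 carried 3 matches. 1 lies at -21 to -12, and the other two, at -159 to -150 and -153 to -144, overlap on the opposite strand. The TLR3 match, on the opposite strand, and the EIF2AK2 match both span the start site, at -4 to 6 and -6 to 4. The DDX58 match lies further out, at -203 to -195. A match is a string of letters, and binding was not measured.

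Library totals ran from 16950119 to 24864977 fragments. Levels are given as FPKM, the authors' fragment counts scaled to model length and library total. Differences are log2 fold changes of fragment counts with their standard error (SE), from 1 edgeR quasi-likelihood fit. Adjusted p is Benjamini-Hochberg over 15682 tested genes, and a gene was called at an adjusted p under 0.05. Both knockdowns were present: LARP4 fell by 2.98 in PC3 (adjusted p = 2.2e-18) and by 1.96 in MG63 (4.4e-14) after siLARP4A, and LARP4B changed by -2.44 (1.2e-15) and -1.70 (2.8e-13) after siLARP4B. Both were deeper in PC3, with effects differing between lines by -1.02 for LARP4 (1.1e-06) and -0.75 for LARP4B (4.1e-05). LARP4 also rose in MG63 after siLARP4B, by 0.43 (8.4e-06), but not in PC3 (-0.03, 0.71). LARP4B was not called after siLARP4A in either line. The part of these differences in the results was not tested. The lines matched their origins on most markers. EPCAM was 18.6 to 25.3 FPKM in PC3 and at most 0.066 in MG63, COL1A1 was 2.38 to 8.90 in PC3 and 719 to 1337 in MG63, but the osteoblast factor RUNX2 was low in both, at most 0.352 and 0.654. The prostate gene KLK3 was at most 0.0442 FPKM in PC3. Of immune markers, which could bring sensor transcripts with them, CD3E had no fragment in any library and ITGAM had at most 9. PTPRC, also listed as an immune marker, was not among the gene symbols kept. In PC3 the summed FPKM of the 5 others, mostly CD14 and LYZ, was 0.719 to 0.721 in siControl. It was 1.19 to 1.46 after siLARP4A and 1.91 to 1.97 after siLARP4B. In MG63 the sum was 2.05 to 2.57, 2.43 to 2.72 and 1.07 to 1.23 in the same order. There it was mostly CD14, since LYZ had no fragment in MG63. The part of these sums in the results was not tested. The libraries are bulk RNA, so more transcript per cell and more cells carrying the transcript cannot be told apart.

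The cytosolic sensors DDX58 and IFIH1 rose after siLARP4B in both lines, and more in MG63. DDX58 (chr9:32455302-32526196, minus strand) encodes RIG-I, which binds short double-stranded ends carrying a 5′ triphosphate. In PC3 it stood at 1.09 and 1.29 FPKM in siControl, 1.30 and 1.12 after siLARP4A, and 2.38 and 2.36 after siLARP4B. Only the siLARP4B libraries stood apart there. In MG63 it stood at 2.09 and 1.99 in siControl, 3.51 and 4.15 after siLARP4A, and 8.40 and 9.61 after siLARP4B. All 3 MG63 groups were separate, in that order. After siLARP4B the log2 fold change was 0.98 in PC3 (SE 0.14, adjusted p = 5.9e-06), a 1.97-fold rise, and 2.16 in MG63 (SE 0.11, 1.6e-12), a 4.47-fold rise. After siLARP4A it was 0.91 in MG63 (SE 0.12, 4.3e-06) and 0.05 in PC3 (SE 0.15, 0.86), where the 95% interval ran from -0.27 to 0.36.

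**Figure D1:**
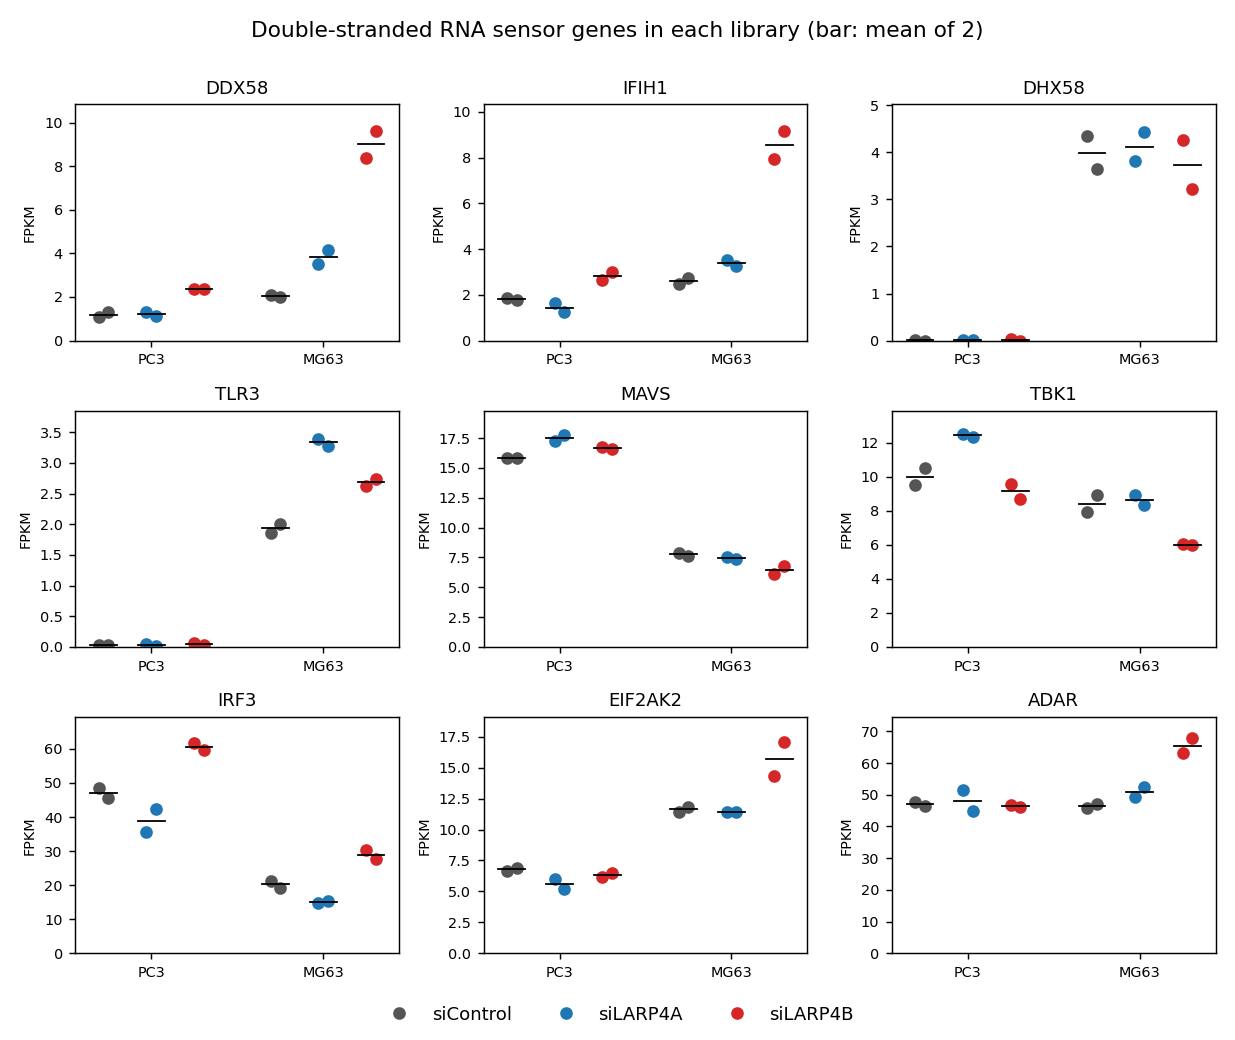
FPKM (vertical axes, from 0) of each of the 9 genes in every library, with PC3 on the left and MG63 on the right of each panel and 1 point per library coloured by siRNA; bars are means of 2 libraries. DDX58 and IFIH1 are highest in the MG63 siLARP4B libraries, between 7.92 and 9.61, and DHX58 and TLR3 lie at the bottom of their panels in all PC3 libraries.

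IFIH1 (chr2:162267074-162318684, minus strand) encodes MDA5, the sensor of long duplexes. PC3 siControl libraries held 1.88 and 1.76 FPKM, siLARP4A 1.63 and 1.25, and siLARP4B 2.67 and 2.98. MG63 siControl libraries held 2.48 and 2.75, siLARP4A 3.50 and 3.26, and siLARP4B 7.92 and 9.16. In each line the siLARP4B libraries lay above both other groups. The rise after siLARP4B was 0.63 in PC3 (SE 0.14, adjusted p = 0.00092) and 1.72 in MG63 (SE 0.11, 1.9e-10), or 1.54-fold and 3.30-fold. After siLARP4A IFIH1 rose by 0.37 in MG63 (SE 0.13, adjusted p = 0.037), a call that 7 of 14 alternative analyses lost, each of the 4 that left out 1 MG63 library among them. Its adjusted p over those alternatives ran from 0.0074 to 0.2. In PC3 the change after siLARP4A was -0.30 (SE 0.15, 0.14), and without siLARP4A replicate 1 it was -0.52 (0.038).

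The responses of both helicase genes differed between the lines by the test of the difference itself. The siLARP4B effect in PC3 minus that in MG63 was -1.18 for DDX58 (SE 0.18, adjusted p = 5.2e-05) and -1.10 for IFIH1 (SE 0.18, 0.00013). For siLARP4A the same difference was -0.87 for DDX58 (SE 0.20, 0.0052) and -0.67 for IFIH1 (SE 0.20, 0.033). The siLARP4A differences depended on single libraries. The DDX58 value was -0.75 (adjusted p = 0.05) without PC3 siControl replicate 2. The IFIH1 value passed the threshold no longer when any of 5 libraries was left out: PC3 siControl replicate 1 (-0.61), PC3 siControl replicate 2 (-0.73), PC3 siLARP4A replicate 2 (-0.51), MG63 siControl replicate 1 (-0.65) or MG63 siLARP4A replicate 1 (-0.66). Set directly against each other, siLARP4A gave less DDX58 than siLARP4B in PC3 (-0.94, SE 0.14, 4.3e-06) and MG63 (-1.25, SE 0.10, 1e-09), and less IFIH1 (-0.93, SE 0.14, 9.3e-06, and -1.35, SE 0.11, 1.8e-09). The DDX58 and IFIH1 calls after siLARP4B held in all alternatives tried.

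DHX58 (chr17:42101411-42112714, minus strand) encodes LGP2, which lacks the signalling domains of RIG-I and MDA5 and tunes both. Its MG63 levels did not follow theirs. MG63 siControl libraries held 4.35 and 3.64 FPKM, siLARP4A 3.82 and 4.43, and siLARP4B 4.27 and 3.21. The 3 groups overlapped, and the log2 fold changes were 0.05 after siLARP4A (SE 0.15, adjusted p = 0.86, 95% interval -0.27 to 0.37) and -0.07 after siLARP4B (SE 0.16, 0.77, -0.40 to 0.25). In PC3 there were 5 fragments over all 6 libraries, at most 2 in any one, too few for a change to be detectable.

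TLR3 (chr4:186069156-186088073, plus strand) encodes the endosomal receptor. It too was nearly restricted to MG63 reads, with 2 to 8 fragments per PC3 library, so no fold is given within PC3. MG63 siControl libraries held 1.87 and 2.00 FPKM, siLARP4A 3.40 and 3.28, and siLARP4B 2.63 and 2.74. The groups did not overlap, and siLARP4A, not siLARP4B, gave the highest level. TLR3 rose by 0.79 after siLARP4A (SE 0.11, adjusted p = 1.2e-05) and by 0.49 after siLARP4B (SE 0.11, 0.0016). The latter call was lost with limma on log2(FPKM + 0.1), at an adjusted p of 0.059. The siLARP4A libraries lay above the siLARP4B libraries by 0.30 (SE 0.11, 0.027), a call that 6 of 14 alternatives lost. DHX58 and TLR3 passed the filter on low counts only through MG63.

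MAVS (chr20:3846834-3876118, plus strand), the mitochondrial adaptor of RIG-I and MDA5, moved little in either line. PC3 libraries held 15.9 and 15.9 FPKM in siControl, 17.2 and 17.7 after siLARP4A, and 16.8 and 16.6 after siLARP4B. MG63 libraries held 7.86 and 7.66, then 7.57 and 7.36, then 6.11 and 6.78. MAVS fell in MG63 after siLARP4B by 0.25 (SE 0.06, adjusted p = 0.0013). In PC3 siLARP4B gave 0.07 (SE 0.05, 0.28), and the effects in the 2 lines differed by 0.32 (SE 0.08, 0.0031). The latter call was lost without MG63 siControl replicate 1 (0.25, adjusted p = 0.055) or MG63 siLARP4B replicate 1 (0.20, 0.067). The rise after siLARP4A in PC3, 0.16 (SE 0.05, 0.018), held in 5 of 14 alternatives, with adjusted p from 0.017 to 0.11.

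TBK1 (chr12:64452120-64502113, plus strand), the kinase on which the MAVS and TLR3 routes converge, rose after siLARP4A in PC3 and fell after siLARP4B in MG63. PC3 libraries held 9.53 and 10.5 FPKM in siControl, 12.5 and 12.4 after siLARP4A, and 9.59 and 8.71 after siLARP4B. MG63 libraries held 7.92 and 8.89, then 8.94 and 8.33, then 6.03 and 5.98. Only PC3 siLARP4A and MG63 siLARP4B lay outside their control range on both libraries. The log2 fold changes were 0.33 in PC3 siLARP4A (SE 0.08, adjusted p = 0.0016) and -0.47 in MG63 siLARP4B (SE 0.09, 0.00022), against -0.13 in PC3 siLARP4B (SE 0.08, 0.20) and 0.04 in MG63 siLARP4A (SE 0.08, 0.80). The siLARP4B effects differed between lines by 0.34 (SE 0.12, 0.040), which held in 6 of 18 alternatives. siLARP4A libraries lay above siLARP4B libraries in both lines, by 0.46 in PC3 (SE 0.08, 2.9e-05) and 0.50 in MG63 (SE 0.09, 5.9e-05).

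IRF3 (chr19:49659572-49665857, minus strand), the transcription factor that TBK1 phosphorylates, moved in opposite directions after the 2 siRNAs, and did so in both lines. PC3 libraries held 48.6 and 45.7 FPKM in siControl, 35.5 and 42.3 after siLARP4A, and 61.8 and 59.6 after siLARP4B. MG63 libraries held 21.4 and 19.2, then 14.8 and 15.5, then 30.2 and 27.5. In each line siLARP4A lay lowest and siLARP4B highest with no overlap. IRF3 fell after siLARP4A by 0.27 in PC3 (SE 0.07, adjusted p = 0.0068) and by 0.42 in MG63 (SE 0.09, 0.0012). It rose after siLARP4B by 0.36 in PC3 (SE 0.07, 0.0003) and 0.53 in MG63 (SE 0.08, 3.3e-05). The siLARP4A minus siLARP4B difference was -0.63 in PC3 (SE 0.07, 1.9e-07) and -0.95 in MG63 (SE 0.09, 1e-08). The PC3 fall was -0.21 (adjusted p = 0.093) without siControl replicate 1 and -0.14 (0.14) without siLARP4A replicate 1. Neither siRNA effect on IRF3 passed the test for a difference between lines: 0.15 for siLARP4A (95% interval -0.09 to 0.39) and -0.17 for siLARP4B (-0.40 to 0.06). IRF3 overlaps BCL2L12 on the opposite strand over 716 bases, and whether counting used strand is not given in the sources used here. BCL2L12 changed by 0.04 (adjusted p = 0.76) and -0.05 (0.64) in PC3 and by 0.08 (0.61) and 0.25 (0.040) in MG63 after siLARP4A and siLARP4B.

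**Figure D2:**
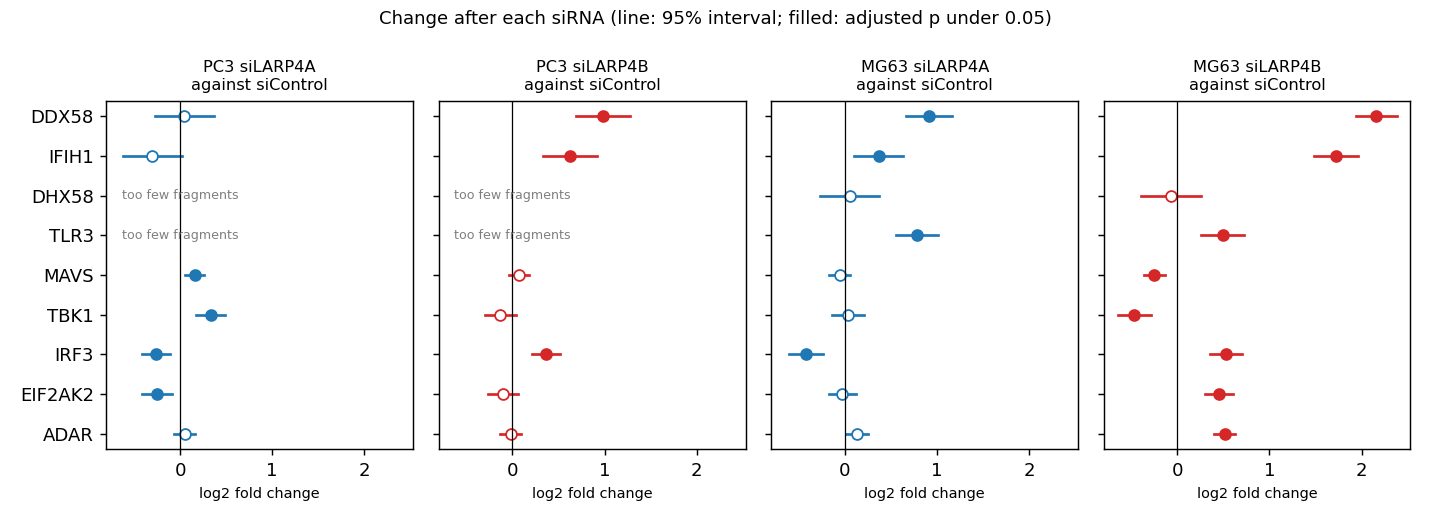
Log2 fold change in fragment counts (horizontal axes) of the 9 genes in the 4 siRNA comparisons, with 95% intervals as lines and filled points for an adjusted p under 0.05. DDX58 and IFIH1 lie furthest right in MG63 siLARP4B, at 2.16 and 1.72, and IRF3 lies left of 0 in both siLARP4A panels and right of it in both siLARP4B panels; DHX58 and TLR3 have too few PC3 fragments.

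The 2 effectors at the end of the set rose after siLARP4B in MG63 and not in PC3. EIF2AK2 (chr2:37099210-37156980, minus strand) encodes PKR. PC3 libraries held 6.67 and 6.87 FPKM in siControl, 6.02 and 5.16 after siLARP4A, and 6.16 and 6.46 after siLARP4B. MG63 libraries held 11.4 and 11.8, then 11.4 and 11.4, then 14.4 and 17.1. In MG63 only the siLARP4B libraries stood apart upwards, and all 4 PC3 knockdown libraries lay below their controls. EIF2AK2 rose by 0.45 in MG63 after siLARP4B (SE 0.07, adjusted p = 3.5e-05) and fell by 0.25 in PC3 after siLARP4A (SE 0.08, 0.013). The PC3 call was lost without siControl replicate 2 (adjusted p = 0.068) or siLARP4A replicate 2 (0.15). After siLARP4B in PC3 it changed by -0.11 (SE 0.08, 0.29), and the siLARP4B effects differed between lines by -0.56 (SE 0.11, 0.00044).

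The PC3 siLARP4B value of EIF2AK2 depended on the transcript model used. The model with the most fragments is 9975 bases long. A model of 4345 bases ends at a proximal 3′ end, and the longer one runs 5931 genomic bases past it. The start sites differ too, at base 37156980 for the long and 37157047 for the short model. The ratio of the models is therefore not a measure of the 3′ end alone. The ratio of fragments on the long to the short model was 1.92 and 1.85 in PC3 siControl, 1.95 and 1.91 after siLARP4A, and 2.23 and 2.22 after siLARP4B. In MG63 the ratio ran from 2.10 to 2.24 in all 6 libraries. In PC3 the siLARP4B libraries thus lay above the other 4, within the MG63 range. Counted on the short model, EIF2AK2 fell after siLARP4B in PC3 by 0.35 (adjusted p = 0.0067, edgeR), and it was also called lower with the mean over its models (-0.22, 0.045) and in a fit of the 4 libraries alone (-0.15, 0.022). The shared part is counted in both models, and the ratio itself was not tested. EIF2AK2 and GPATCH11 on the opposite strand overlap by 35 bases only.

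**Figure D3:**
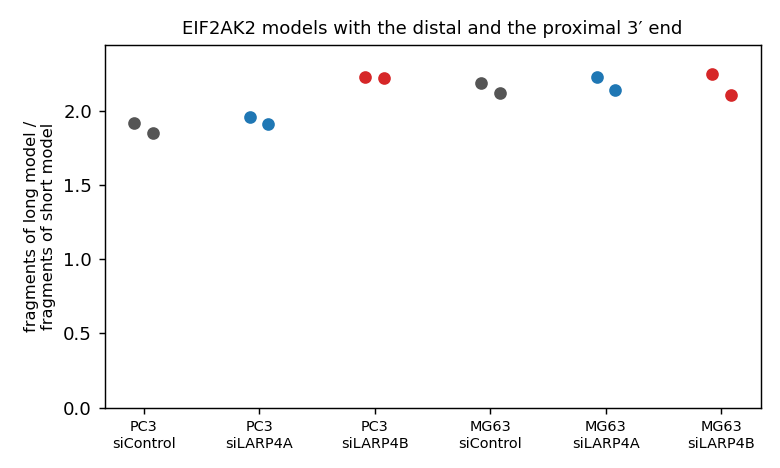
Ratio of the fragments counted on the long EIF2AK2 model, with the distal 3′ end, to those on the short model (vertical axis, from 0) in each of the 12 libraries, 1 point per library. The PC3 siLARP4B points, 2.23 and 2.22, lie above the other PC3 points, 1.85 to 1.95.

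ADAR (chr1:154582058-154608186, minus strand) encodes the editing enzyme ADAR1. PC3 libraries held 47.8 and 46.3 FPKM in siControl, 51.4 and 44.8 after siLARP4A, and 46.7 and 46.2 after siLARP4B, all overlapping. MG63 libraries held 45.9 and 47.0, then 49.4 and 52.3, then 63.1 and 67.8, with no overlap. The rise in MG63 after siLARP4B was 0.51 (SE 0.06, adjusted p = 2.9e-07), while PC3 siLARP4B gave -0.02 (SE 0.06, 0.80). The effects differed between lines by -0.54 (SE 0.08, 3.1e-05). After siLARP4A the change was 0.13 in MG63 (SE 0.06, 0.09), which 3 of 14 alternatives called, and 0.05 in PC3 (SE 0.06, 0.52). The tables hold 10 ADAR models, of which 3 start upstream of the others, at bases 154627971 and 154627997. The interferon-responsive and the constitutive ADAR promoter could not be read separately, because the models share nearly all of their exons: over the 10 models FPKM ran from 45.4 to 47.5 in MG63 siControl replicate 1 and from 62.4 to 65.4 in siLARP4B replicate 1.

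The 9 genes were chosen with earlier results of these data known, so their counts beside the shares of all tested genes are a description only. Counted over the 9 genes, siLARP4B in MG63 gave the most calls against siControl. There 8 were called, 6 higher and 2 lower, where 34.9% of all tested genes were called (18% higher, 16.9% lower). After siLARP4A in MG63 it was 4, 3 of them higher, against a background of 26.8% (13.3% higher, 13.5% lower). In PC3 siLARP4A gave 4 calls, 2 each way, against 36.4% (19.5% higher, 16.9% lower), and siLARP4B gave 3, all higher, against 45.7% (24.8% higher, 20.9% lower). The PC3 shares, 44.4% and 33.3%, therefore lay near or under the background, with DHX58 and TLR3 counted as not called. Left without PC3 siControl replicate 1 or 2, the PC3 siLARP4A count was 2. The median log2 change of the 9 genes in MG63 was 0.49 after siLARP4B and 0.05 after siLARP4A, while that of all tested genes was near 0 in both (-0.0026 and -0.00056). Between the knockdowns, 4 of 9 differed in PC3, 1 higher and 3 lower with siLARP4A, where 54.1% of all tested genes differed (26.3% higher, 27.8% lower). In MG63 8 of 9 differed, 3 higher and 5 lower, against 43.8% (21.6% higher, 22.2% lower). The siLARP4A effect differed between the lines for 2 of 9, both lower in PC3, against 11.2% (5.74% higher, 5.46% lower). The siLARP4B effect differed for 6 of 9, 2 higher and 4 lower in PC3, against 26.8% (12.4% higher, 14.4% lower). The comparisons of either siRNA with siControl in 1 line share its siControl libraries, and each knockdown group also enters the comparison between the knockdowns.

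Baseline levels differed between the lines for most of these genes. In PC3 siControl the order by mean FPKM was IRF3 (47.2) and ADAR (47.0), whose libraries overlapped, then MAVS (15.9), TBK1 (10.0), EIF2AK2 (6.77), IFIH1 (1.82), DDX58 (1.19), TLR3 (0.0313) and DHX58 (0.0107). In MG63 siControl it was ADAR (46.4), IRF3 (20.3), EIF2AK2 (11.6), TBK1 (8.41), MAVS (7.76), DHX58 (3.99), IFIH1 (2.62), then DDX58 (2.04) and TLR3 (1.93), whose libraries overlapped. Among the 7 genes read in both lines, PC3 held more MAVS, by 0.85 (SE 0.05, adjusted p = 1.4e-12), and more IRF3, by 1.03 (SE 0.08, 5.1e-11). It held less DDX58, by -0.95 (SE 0.14, 2.5e-06), less IFIH1, by -0.71 (SE 0.14, 9.5e-05), and less EIF2AK2, by -0.97 (SE 0.08, 5.9e-11). The receptors and PKR were thus higher in MG63, and the adaptor and the transcription factor in PC3. BCL2L12, opposite IRF3, was also higher in PC3, by 1.04 (adjusted p = 2e-10).

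DHX58 and TLR3 gave the widest gap between the lines. With siControl there were 384 DHX58 fragments in MG63 and 1 in PC3, a ratio of 382 per library total (exact 95% interval 68.2 to 15132, counting error only). The only PC3 fragment lay in siControl replicate 1, so the ratio is undefined without that library, and it was 186 without PC3 siControl replicate 2. For TLR3 there were 433 and 7, a ratio of 61.6 (29.6 to 154). After siLARP4A the TLR3 ratio was 109.9 and after siLARP4B 53.0, with intervals that overlap. TBK1 and ADAR levels were close. TBK1 differed by 0.07 (SE 0.08, adjusted p = 0.47), and ADAR by -0.17 (SE 0.06, 0.010) with overlapping FPKM. Both values depended on the analysis. TMM, edgeR's scaling for RNA composition, shifted all genes by 0.17 between PC3 and MG63 siControl. With limma on log2(FPKM + 1), which has another scaling and another test, ADAR differed by 0.02 (adjusted p = 0.79) and TBK1 by 0.23 (0.013). With TMM kept, ADAR lost its call without PC3 siControl replicate 2 (-0.13, 0.091) or MG63 siControl replicate 2 (-0.15, 0.068). Of the 7 genes read in both lines 6 were called, 2 higher in PC3 and 4 lower, where 82% of tested genes were called between the lines (41.3% higher, 40.7% lower), so the number says nothing particular about them. The 2 lines were also grown in different media, which cannot be told apart from the line.

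**Figure D4:**
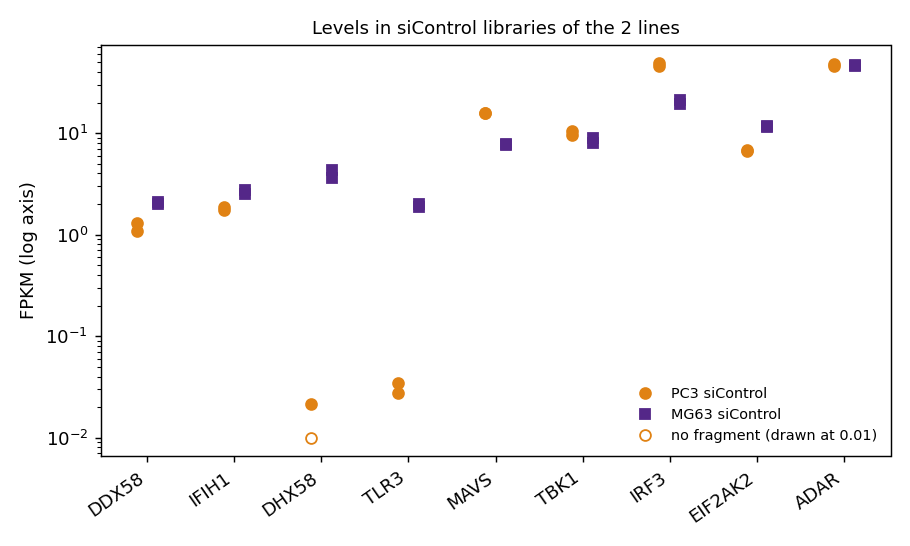
FPKM on a log axis of the 9 genes in the siControl libraries of PC3 (circles) and MG63 (squares), 2 points per line, with a library without any fragment drawn open at 0.01. DHX58 and TLR3 are under 0.04 FPKM in PC3 and between 1.87 and 4.35 in MG63, while ADAR lies at 45.9 to 47.8 in both.

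Around these genes, 71 of 81 other genes of the pathway could be tested, in 6 lists. Of all tested genes, 36.4% were called in PC3 siLARP4A, 45.7% in PC3 siLARP4B, 26.8% in MG63 siLARP4A and 34.9% in MG63 siLARP4B. Their median log2 changes were 0.028, 0.041, -0.00056 and -0.0026 in the same order. No list was tested against these values, and a count near its share says nothing particular about the list. The OAS and RNase L arm had the highest median log2 change of the 6 lists in both siLARP4B comparisons and in MG63 siLARP4A, but not in PC3 siLARP4A. OAS enzymes bind double-stranded RNA and make the 2′-5′ oligoadenylate that activates RNase L. In MG63 after siLARP4B, 4 of its 6 genes rose and none fell, with a median log2 change of 1.59. OAS1 rose by 2.35 (SE 0.11, adjusted p = 6.4e-13), from 4.75 ± 0.0404 to 24.0 ± 0.579 FPKM (SD, n = 2), OAS2 by 2.08 and OASL by 1.80. In MG63 after siLARP4A 3 rose, OAS2 by 0.73 (adjusted p = 0.00026), OAS3 by 0.56 and OAS1 by 0.55. In PC3 after siLARP4B 4 rose and 1 fell, with OAS2 at 0.94 (6.7e-06) and OAS1 at 0.72. In PC3 after siLARP4A, by contrast, OAS1 and OAS2 fell, by 0.62 (0.00013) and 0.61 (0.0043), and 1 gene of the 6 rose.

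**Figure D5:**
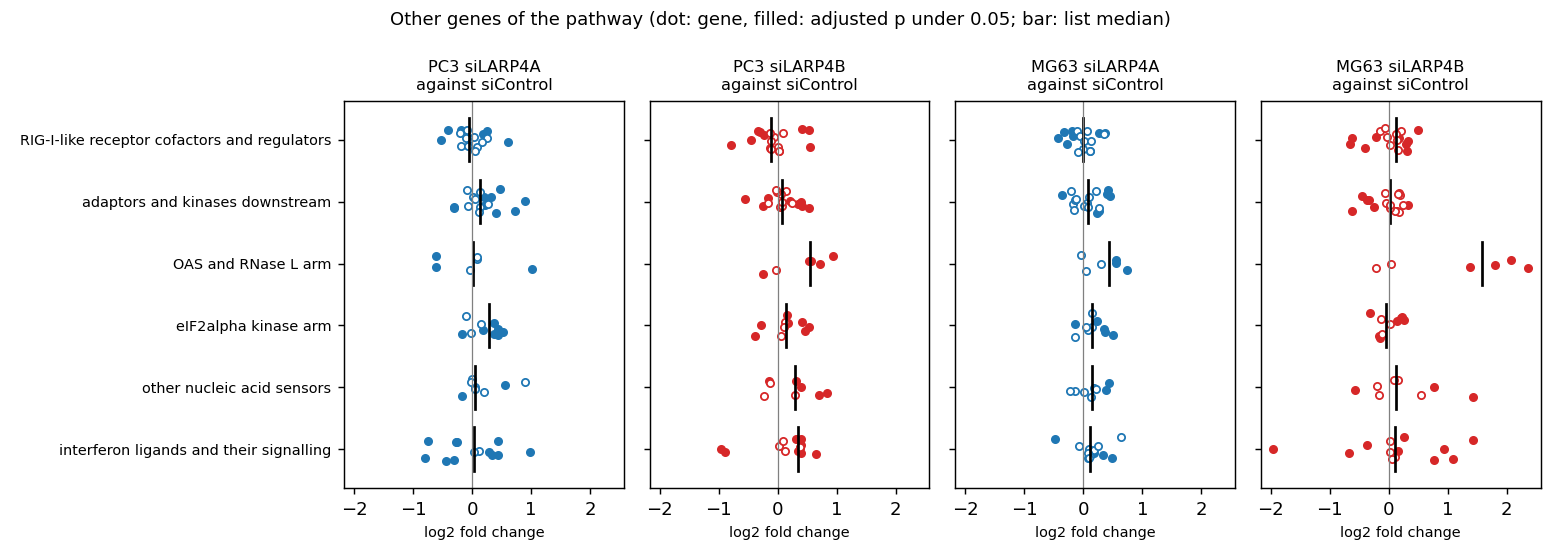
Log2 fold change (horizontal axes) of 71 other pathway genes in the 4 siRNA comparisons, grouped into 6 lists, with 1 point per gene, filled for an adjusted p under 0.05, and a bar at the list median. The OAS and RNase L list has its median at 1.59 in MG63 siLARP4B and at 0.02 in PC3 siLARP4A.

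Interferon signalling genes moved both ways in all 4 siRNA comparisons. Of 13 tested, 6 rose and 3 fell in MG63 after siLARP4B. USP18, an interferon-induced brake on the receptor, rose by 1.42 (adjusted p = 2.2e-07), and IRF9, part of the transcription complex that interferon activates, by 1.09 (7.1e-08). In PC3 after siLARP4B 7 rose and 2 fell: STAT2 rose by 0.66 (4.9e-07), while IRF2, a repressor, fell by 0.97 and the receptor IFNLR1 by 0.90. In PC3 after siLARP4A 5 rose and 6 fell, with SOCS1 up 0.98 (0.0013) and IRF9 and IRF1 down 0.79 and 0.75. In MG63 after siLARP4A 3 rose and 1 fell, USP18 by 0.49 (0.037) and IRF2 by -0.49 (0.00012). The ligands were hardly read. IFNB1 had no fragment in any PC3 library, and in MG63 0 and 2 in siControl, 1 and 0 after siLARP4A, and 5 and 3 after siLARP4B, too few to test. IFNL1 and IFNL2 had at most 1 fragment in a library and IFNL3 none.

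Regulators of the cytosolic receptors went both ways. Of 17 tested, 5 rose and 4 fell in MG63 after siLARP4B. PRKRA, which encodes the PKR activator PACT, fell after siLARP4B in MG63 by 0.62 (adjusted p = 2e-06) and in PC3 by 0.79 (5.6e-08). NLRX1, which restrains MAVS, fell in MG63 by 0.66 (8.5e-06), and ZC3HAV1, the RNA-binding antiviral protein ZAP, rose by 0.49 (4.1e-05). In PC3 after siLARP4B 3 rose and 6 fell, with the RIG-I ubiquitin ligase RNF135 up 0.55 (0.00012). After siLARP4A 3 rose and 3 fell in PC3 and 2 rose and 5 fell in MG63, and the helicase DHX15 fell in both, by 0.53 (1.1e-08) and 0.43 (3.8e-07).

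Of 17 adaptors and kinases, 7 rose and 2 fell in PC3 after siLARP4A, and 5 rose and 1 fell in MG63. TRAF3, a ubiquitin ligase between MAVS and TBK1, rose by 0.48 (adjusted p = 2.4e-07) and 0.41 (9.9e-06), and TBKBP1, a TBK1-binding adaptor, by 0.72 (2.3e-06) and 0.41 (0.0024). After siLARP4B 5 rose and 3 fell in PC3, while in MG63 1 rose and 5 fell, among them IKBKB by 0.62 (7.4e-07), the TLR3 adaptor TICAM1 by 0.46 (0.0015) and NFKB1 by 0.37 (0.00033). The gene that rose there was TANK, a TBK1-binding scaffold, by 0.33 (0.0028), named after its value was seen.

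The eIF2α arm, beside PKR, had 6 of 10 genes higher and 1 lower in PC3 after siLARP4A, and 5 and 2 after siLARP4B. PPP1R15A, a regulatory subunit of the eIF2α phosphatase, rose there by 0.52 (adjusted p = 2.8e-07) and 0.53 (1.3e-07). In MG63 PPP1R15A rose after siLARP4A by 0.23 (0.0079) but fell after siLARP4B by 0.32 (0.00045). In MG63 4 rose and 1 fell after siLARP4A, led by EIF2AK3, the kinase PERK, at 0.51 (0.00016), and 4 rose and 3 fell after siLARP4B. Of 8 other nucleic acid sensors, 4 rose and 1 fell in PC3 after siLARP4B, and 2 rose and 1 fell in MG63. After siLARP4A 1 rose and 1 fell in PC3, 2 rose and 0 fell in MG63, and 6 were not called in each line. The DNA-sensing genes IFI16 and STING1 both rose in PC3 after siLARP4B, by 0.70 (7.8e-07) and 0.84 (8.7e-08). In MG63 after siLARP4B IFI16 rose by 0.77 (2.2e-08) and STING1 fell by 0.56 (7.4e-07), and SAMHD1, a nucleotide hydrolase, rose by 1.42 (2.9e-11). SAMHD1 also rose in PC3 after siLARP4B, by 0.39 (8.2e-05), and in MG63 after siLARP4A, by 0.44 (0.00086). In PC3 after siLARP4A SAMHD1 was not called (-0.02, 0.83). Over all lists, of 71 tested genes 23 rose and 15 fell in PC3 after siLARP4A, and 28 and 15 after siLARP4B. In MG63 it was 19 and 8, then 22 and 16. Beside these, 36.4%, 45.7%, 26.8% and 34.9% of all tested genes were called, in the same order.

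The genes whose levels over the 12 libraries ran closest to each of the 7 members read in both lines were taken by Pearson r on log2 counts scaled to library size after each line's mean was removed, among 12438 genes. The libraries share groups of 2, so r is a description. Closest to DDX58 was RSAD2 (r = 0.98), which encodes the antiviral enzyme viperin, followed by SLC16A9 and PAWR (both 0.98). For IFIH1 they were RTL6, PARP9 and HERC6 (all 0.98), for ADAR ZC3HAV1 (0.96), OAS3 (0.95) and MYCBP (0.94), and for EIF2AK2 PPP2R5A (0.98), LARP1 (0.95) and COX7B (0.94). IRF3 ran with MTCH1 (0.99), ATP6V0C and POLR1C (both 0.98), TBK1 with ANO1 (0.97), NNT-AS1 and DCBLD2 (both 0.96), and MAVS with SIPA1L3 (0.94), BCL2L2 and FBXO2 (both 0.92). No partners are given for TLR3 and DHX58, since their PC3 libraries held at most 8 and 2 fragments.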

How the data were processed

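The authors deposited 1 table per library of 86394 transcript models. Per the file headers these hold whole fragment counts, FPM (a signal scaled by the authors to the library total) and FPKM. Per the submitters' processing notes, FastQC, HISAT2, featureCounts, edgeR and hg38 were used; their versions, the annotation and strand handling are not given in the sources used here. A fragment in an exon shared by models is counted in each of them. PC3 siControl replicate 2 also has deduplicated counts, used as an alternative.

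Models on primary chromosomes were kept, 1814 symbols at several loci were left out, and for each gene the model with the most fragments was used. Counts were tested in R 4.3.3 with edgeR 4.0.16 (filterByExpr, TMM, quasi-likelihood F-test, a mean per group, 12 libraries, two-sided), with Benjamini-Hochberg adjustment within each of 9 comparisons. The coefficient of variation was 4.22%, shared over groups, since each has 2 libraries. The test was checked on simulated data. Alternatives used limma 3.58.1 on log2(FPKM + 1) or log2(FPKM + 0.1) and DESeq2 1.42.0. Replicates of a group differed by more than sampling noise (chi-square per degree of freedom 1.65 to 6.44). The members and gene lists were chosen with earlier results of these data known. Named genes were, besides the 9 members and both targets, up to 3 per list and comparison with the highest absolute fold change among called genes that averaged 1 FPKM or more in 1 of the groups, and the 3 most correlated with each of the 7 members read in both lines. Some genes of these lists are not reported here.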

Additional observations from a re-analysis of the deposited data

Results flagged for a closer look

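For 8 gene and siRNA pairs the effect against siControl differed between PC3 and MG63 by the interaction term of the edgeR fit. After siLARP4B the effect in PC3 minus that in MG63 was -1.178 for DDX58, -1.095 for IFIH1, -0.5577 for EIF2AK2 and -0.5353 for ADAR (a smaller change in PC3, or none called), and 0.3206 for MAVS and 0.3368 for TBK1, both of which fell in MG63 and were not called in PC3. After siLARP4A it was -0.8661 for DDX58 and -0.6671 for IFIH1. No group has the 4 libraries that a check for single outlying libraries needs.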

How the results depend on the processing

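Of 1040 values recomputed under the alternatives, 953 were counted as unchanged, 53 lost the call, 15 gained one and 19 changed sign. The cause of these changes was not tested. Unchanged values kept direction and call. The DHX58 and TLR3 fragment ratios between the lines have no call, and counted as unchanged if within the exact interval of the full data. For DHX58 that interval was wide, 68.2 to 15132. Leaving out 1 library at a time gave 2 to 4 called members in PC3 siLARP4A (4 in full), 0 to 4 for the siLARP4A difference between lines (2 in full), and 17 to 20 called pathway genes in MG63 siLARP4A (27 in full). Over all genes it left 2698 calls without MG63 siControl replicate 2 in MG63 siLARP4A (4207 in full) and 1049 in the siLARP4A difference between lines (1757 in full). Signs that turned with 1 library left out belonged to small changes, whose ranges follow. In PC3 siLARP4A DDX58 ran from -0.0851 to 0.162 and ADAR from -0.0564 to 0.147, and in PC3 siLARP4B ADAR ran from -0.0590 to 0.00571. In MG63 siLARP4A DHX58 ran from -0.0704 to 0.196, TBK1 from -0.0301 to 0.129 and EIF2AK2 from -0.0393 to 0.00118 (0.00350 when low-FPKM genes were left out). DHX58 in MG63 siLARP4B ran from -0.293 to 0.119. Between the knockdowns ADAR in PC3 ran from -0.0298 to 0.173 and DHX58 in MG63 from -0.0601 to 0.352. Between the lines TBK1 ran from -0.00663 to 0.153, and the siLARP4A difference for ADAR from -0.188 to 0.0151. ADAR between the lines turned with limma (0.0184 and 0.0187). EIF2AK2 between the knockdowns in PC3 turned with the short model (0.0547), an alternative added after the data were seen. The replicate numbers did not pair the libraries (correlations of deviations between groups from -0.121 to 0.083 over 9931 genes). The replicate block kept all calls except ADAR between the lines (-0.0816, adjusted p = 0.2) and the TBK1 siLARP4B difference between lines (0.336, 0.056). The block was fitted per line, so its values between the siControl groups of the lines compare levels fitted for replicate 1. The ADAR value is therefore not the group difference adjusted for replicate. With 2 libraries per group, the leave-one-out fits assume that the lone library varies like the other groups. DHX58 and TLR3 had at most 2 and 8 fragments in a PC3 library, at library totals like those of MG63, so changes within PC3 were not detectable.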
